A study of Arabidopsis thaliana with 27 samples.

Results

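The 10 loci described here encode serine/arginine-rich (SR) splicing factors of Arabidopsis thaliana: SR30, SR34, SR34a, RS2Z33, RS31, RS40, RS41, SCL33, SCL30a and the SR-like protein SR45. They were taken by name from the 27587 loci of the count table, and all of their 52 listed transcripts, of 48268 in all, were used. RNA was sequenced from whole Columbia-0 (wild-type) seeds with heart, bent or mature embryos, with 3 libraries in each of 9 groups and at least 50 seeds per replicate. Control plants stayed at an average of 23 °C (day 24 °C, night 22 °C). The others were moved, when the first flower buds appeared, to 25 °C (day 26 °C, night 24 °C, mild stress) or 27 °C (day 28 °C, night 26 °C, severe stress). Besides questions on seed traits and DNA methylation, the study asked how warmth during seed development changed the transcriptome. Whole seeds mix embryo, endosperm and maternal seed coat, so that fewer cells of a type and less RNA per cell cannot be told apart.

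SR proteins bind pre-mRNA through RNA recognition motifs, and their arginine/serine-rich tails recruit the factors that define splice sites. They take part in both constitutive splicing and the choice between alternative splice sites. In plants their own pre-mRNAs are extensively spliced in alternative ways, and many of the resulting isoforms carry an early stop codon. A stop codon well upstream of the last exon junction is a known signal for nonsense-mediated decay, although some such plant transcripts stay in the nucleus. SR30, SR34 and SR34a belong to the subfamily related to human SRSF1 (ASF/SF2). RS31, RS40 and RS41 form a plant-specific subfamily, RS2Z33 carries zinc knuckles, and SCL33 and SCL30a resemble human SRSF2 (SC35) with an added N-terminal extension. SR45 has arginine/serine-rich stretches on both sides of its recognition motif and is counted as SR-like.

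SR30 and SR34 are shown first because their isoforms differ by the choice of one 3′ splice site, and these genes held 4 of the 5 member isoforms whose share was called at 27 °C over the mean of the stages. Positions and sequences are from RefSeq, assembly TAIR10.1, in which all 52 transcripts were matched by name and had the same spliced length as in the count table. SR30 (AT1G09140) lies on the minus strand of chromosome 1, from 2942538 to 2945976. After exon 10, which ends at 2944169, isoform SR30.1 uses the far acceptor after an intron of 942 bases, with exon 11 starting at 2943226. Isoform SR30.2 uses a nearer acceptor, after an intron of 604 bases, with exon 11 starting at 2943564. The longer exon 11 of SR30.2 holds a stop codon that ends 37 bases into it, 359 bases upstream of the last exon junction. SR30.1 encodes 268 amino acids and SR30.2 encodes 256. SR30.3 keeps the intron unspliced. The shared donor and both acceptors are shown with exon bases in capitals, and the last line runs from the start of exon 11 of SR30.2 to its stop codon in capitals.
SR30 shared donor, chr1:2944149-2944178, minus strand: CTGTCTCAAGgtatgagtgttagatttgta
SR30.1 acceptor, chr1:2943217-2943246, minus strand: ggtttttggtcttgctgcagGTCCCAATCA
SR30.2 acceptor, chr1:2943555-2943584, minus strand: ttgcgttgtttgttttctagATCTGGCTCA
SR30.2 exon 11 to stop, chr1:2943528-2943564, minus strand: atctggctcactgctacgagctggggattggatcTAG

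SR34 (AT1G02840) lies on the plus strand of chromosome 1, from 626639 to 629993, and has the same arrangement with 3 acceptors. Exon 10 ends at 628469. SR34.1 uses the farthest acceptor after an intron of 818 bases, with exon 11 starting at 629288, and encodes 303 amino acids. SR34.2 uses the acceptor before 628935 after an intron of 465 bases and reaches a stop codon 61 bases into the exon, 403 bases upstream of its last junction. SR34.3, SR34.4 and SR34.5 use the nearest acceptor, before 628777, and their stop codon ends 22 bases into the exon. It lies 58 bases upstream of the last junction in SR34.3 and 600 bases in SR34.5. SR34.2 encodes 285 amino acids, and the isoforms of the nearest acceptor encode 272. In the lines below, capitals mark exon bases in the donor and acceptors and the stop codon in the last pair.
SR34 shared donor, chr1:628460-628489, plus strand: CTCCAAGAAGgtaatgatttgattcctttt
SR34.1 acceptor, chr1:629268-629297, plus strand: cttttcttggacttttgcagATCGCGTTCA
SR34.2 acceptor, chr1:628915-628944, plus strand: ctaatttacattgctgctagATGGATAACA
SR34.3 acceptor, chr1:628757-628786, plus strand: aaaatggttttgtttcatagATATGGATTT
SR34.2 exon 11 to stop, chr1:628935-628995, plus strand: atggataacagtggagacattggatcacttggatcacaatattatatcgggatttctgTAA
SR34.3 exon 11 to stop, chr1:628777-628798, plus strand: atatggatttacatacgacTAG

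All of these acceptors end in AG, as do 99.8% of the 126948 annotated acceptors. Of their last 20 intron bases, 60% are pyrimidines at SR30.1 and SR34.2, 70% at SR30.2 and SR34.1, and 50% at SR34.3. Over all annotated acceptors the median was 60%, with quartiles of 50% and 65%. The far acceptor thus had the lower pyrimidine content in SR30 and the higher one in SR34.

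**Figure D1:**
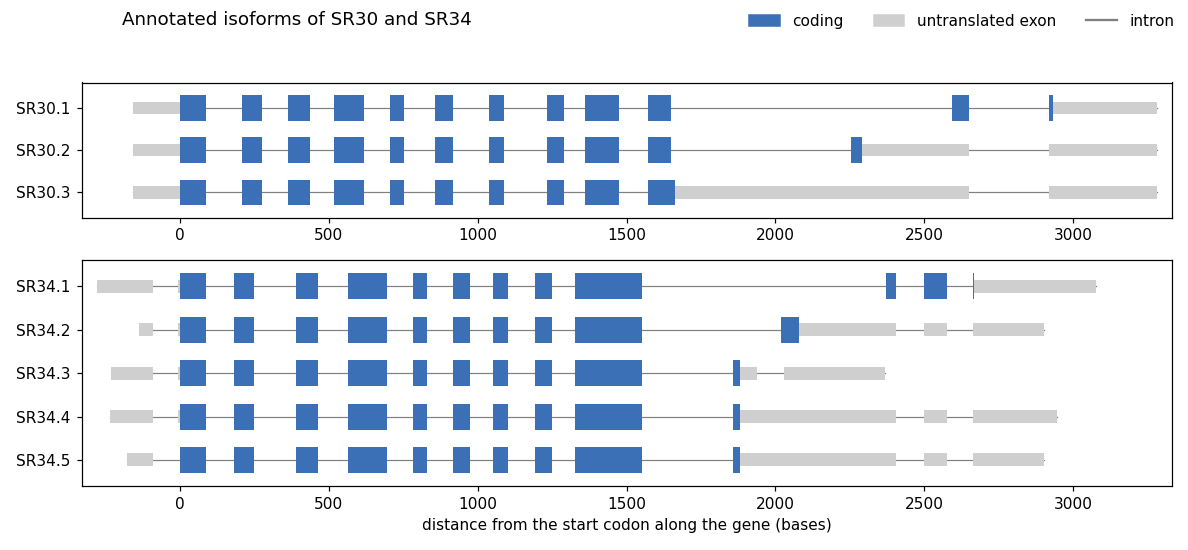
Exons of the SR30 and SR34 isoforms drawn to scale (x axis, distance from the start codon along the gene in bases, 5′ to 3′), one isoform to each line, with tall blue boxes for coding sequence, grey boxes for untranslated exon parts and lines for introns. The coding exons of SR30.1 and SR30.2, and those of the SR34 isoforms, agree up to exon 10 and part at exon 11, whose start depends on the acceptor used, whereas SR30.3 reads on from exon 10 into the retained intron.

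Total counts ranged from 17227596 to 19445885 per library. Replicate 3 of bent seeds at 23 °C stood apart in its isoform estimates. Among transcripts of loci with several transcripts and a mean of at least 50 counts it had 32.7% at 0, against 19.2 to 23.8% elsewhere. It had 12 member isoforms at 0, against 2 to 8 elsewhere. It also had the highest normalised count of its group for all 10 members, and on the per-length scale, TPM (counts divided by the deposited effective length and scaled to one total), it was instead the lowest of its group for SR34, SR34a, RS31, RS40, RS41, SCL30a and SR45. Most member results that rest on this library are therefore given with and without it. Those of the interaction tests and of other genes include it throughout. Replicate 1 of heart seeds at 23 °C also differed, with 47466 summed normalised counts of 6 embryo and maturation markers, the highest of a group that began at 2028. Leaving it out changed no member's call at 27 °C within heart seeds. In heart seeds the same sum was 1633 to 1855 at 25 °C and 7417 to 11050 at 27 °C, the latter inside the range of the controls. Whether embryo maturation differed with temperature among heart seeds was not tested. With warmth, seed coat and pollen markers also moved: the sum of 4 seed coat genes in heart seeds was 22438 to 30260 at 23 °C and 17863 to 19374 at 27 °C. For bent seeds these ranges were 16601 to 24334 and 11793 to 13579, and for mature seeds 4375 to 5339 and 3459 to 3889. The 4 pollen genes summed to 1169 to 2872 in heart controls against 289 to 431 at 27 °C, to 695 to 1472 against 106 to 218 in bent seeds, and to 332 to 1303 against 60.2 to 120 for mature seeds. In every stage both sums were lower at 27 °C, without overlap. The sum of 4 endosperm genes was 645 to 707 in bent controls and 800.2 to 825 at 27 °C, without overlap, whereas the heart and mature ranges overlapped. In bent seeds at 25 °C the embryo and maturation sum was 31202 to 49485, against 61752 to 91852 in the controls. The seed coat sum there was 14796 to 15982 and the pollen sum 208 to 244, each also below the controls without overlap. The endosperm sum overlapped the controls. The part of these tissues and of embryo maturation in the results was not tested.

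Per transcript length, SR30 was the most abundant member, with a mean of 139 TPM over the 27 libraries (range 82.9 to 226). SR34, RS2Z33 and RS41 followed at 95.6, 87.4 and 84.9 TPM. SCL33, RS31, SR34a, RS40 and SR45 lay between 67.5 and 46.7 TPM, and SCL30a was lowest at 37.8 TPM (range 21.9 to 52.5). The ranges over libraries of neighbours in this order overlapped.

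SR30 was higher at 27 °C in heart and mature seeds. Its normalised counts in heart seeds were 2500.2, 2393 and 2478 at 23 °C and 3292, 3512 and 3364 at 27 °C, so every warm library lay above every control. Mature seeds gave 2065, 2076 and 2133 at 23 °C and 3072, 2802 and 2943 at 27 °C, again without overlap. Heart seeds had a log2 fold change of 0.46 ± 0.14 (SE), or 1.38-fold (DESeq2, adjusted p = 0.0066), and mature seeds one of 0.49 ± 0.14 (1.41-fold, adjusted p = 0.0033). In bent seeds the control libraries held 2043, 1923 and 3439.8 normalised counts and the warm libraries 2986, 2888 and 3000.0. The third control library lay above all warm ones, and the difference of 0.26 ± 0.14 did not pass the test (adjusted p = 0.131). Without that library it was 0.57 (adjusted p = 1.4e-11), and under library-total scaling with all libraries 0.49 (adjusted p = 6.1e-06). Per length the bent groups did not overlap, with 119.7, 113 and 132 TPM at 23 °C against 175, 179 and 179.9 TPM at 27 °C. The mean over the stages was 0.41 ± 0.08 (adjusted p = 3.9e-06), and the call held under library-total scaling and in each fit that left out 1 of the 27 libraries.

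The isoforms of SR30 did not move alike. Averaged over all libraries, SR30.1 and SR30.2 took 46.6% and 44.4% of the locus's estimated reads, which is 54.2% and 39.4% per length, and SR30.3 took 9.04% of the reads. In mature seeds SR30.1 took 34.5%, 37.3% and 31.7% at 23 °C and 53.1%, 52.3% and 50.8% at 27 °C. The share of SR30.2 in the same libraries was 53.0%, 55.1% and 60.4% at 23 °C and 40.0%, 38.4% and 41.1% at 27 °C. The order of both isoforms was thus exchanged in mature seeds, with no overlap between temperatures. In normalised counts SR30.1 went from 712, 774 and 677 to 1632, 1467 and 1496, whereas SR30.2 had 1095, 1143 and 1289 at 23 °C and 1230.1, 1077 and 1209.8 at 27 °C, which overlapped. The additional SR30 reads of warm mature seeds were therefore assigned to SR30.1, the isoform with the longest coding sequence.

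Shares were tested as log2 odds, the log2 ratio of an isoform to the rest of its locus, with limma over 22554 isoforms of all genes. The odds of SR30.1 in mature seeds rose by 1.05 ± 0.20 (SE, adjusted p = 0.025) and those of SR30.2 changed by -0.95 ± 0.20 (adjusted p = 0.046). They were the only 2 of 44 tested member isoforms called in that contrast, in which 0.248% of all isoforms were called. Both calls were close to the threshold: that of SR30.1 was lost without replicate 1 or 3 at 23 °C or without any single replicate at 27 °C (adjusted p 0.065 to 0.105), and that of SR30.2 in 21 of 27 such fits. Bent seeds gave SR30.1 shares of 45.0%, 44.8% and 44.3% at 23 °C and 52.8%, 54.2% and 53.4% at 27 °C. Heart seeds gave 43.7%, 53.7% and 47.7% at 23 °C against 52.5%, 53.5% and 52.8% at 27 °C, where the groups overlapped. Averaged over the stages, the log2 odds of SR30.1 rose by 0.61 ± 0.12 (adjusted p = 0.0056) and those of SR30.2 changed by -0.60 ± 0.11 (adjusted p = 0.0057), and both calls held in all fits without 1 library. A second method, diffSpliceDGE of edgeR, compares each isoform with its locus on counts. Its value is a log2 fold change against the whole locus, on another scale than log2 odds. This method gave 0.33 for SR30.1 and did not call it (adjusted p = 0.276). The 2 tests of SR30.1 and SR30.2 largely mirror each other and are not separate evidence.

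SR34 showed a shift between isoforms, while the locus was not called in any stage. Its normalised counts in mature seeds were 2219.8, 2361 and 2462 at 23 °C and 2339, 2206 and 2217 at 27 °C, which overlapped (-0.06 ± 0.09, adjusted p = 0.685; 95% interval -0.24 to 0.12). Heart seeds held 2111, 1968 and 2067 at 23 °C and 2023, 2158 and 2072 at 27 °C. The bent difference was -0.20 ± 0.09 (adjusted p = 0.063). Within these totals the share of SR34.1 was lower at 27 °C in every stage. In heart seeds it took 46.5%, 42.4% and 47.8% at 23 °C and 30.2%, 27.0% and 26.3% at 27 °C. In bent seeds the shares were 46.3%, 40.7% and 48.1% at 23 °C against 25.0%, 28.3% and 25.5% at 27 °C. Mature seeds gave 30.9%, 34.9% and 29.4% at 23 °C against 15.6%, 20.2% and 20.8% at 27 °C. All 9 warm libraries lay below the controls of their stage, and the normalised counts of SR34.1 likewise did not overlap, going in mature seeds from 686, 823 and 725 to 366, 446 and 461.

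Averaged over the stages, the log2 odds of SR34.1 fell by 1.11 ± 0.14 (limma, adjusted p = 1.7e-04), and this was the only member isoform that diffSpliceDGE also called. Together with SR34.2, SR30.1, SR30.2 and RS40.1 it was one of 5 of 44 member isoforms called in the mean contrast, against 3.84% of all isoforms. Within single stages the change was -1.20 ± 0.24 in bent seeds (adjusted p = 0.032), the only member isoform called there against 0.372% of all isoforms. It was -1.12 ± 0.24 in heart seeds (adjusted p = 0.070), where no member isoform was called (limma; 5 of 44 at an unadjusted p under 0.05) and the background was 0.102%. In mature seeds it was -1.004 ± 0.24 (adjusted p = 0.078). The bent call was lost without replicate 3 at 23 °C (adjusted p = 0.089) or without any one replicate at 27 °C. SR34.2 took the opposite course, with 18.1%, 20.9% and 18.2% in heart seeds at 23 °C and 27.0%, 29.1% and 31.3% at 27 °C. Bent seeds overlapped, with 19.6%, 19.7% and 29.96% against 33.7%, 28.8% and 26.7%, the highest control being replicate 3. In mature seeds it took 30.6%, 28.4% and 28.1% at 23 °C and 37.0%, 36.4% and 33.1% at 27 °C. Its mean log2 odds rose by 0.58 ± 0.15 (adjusted p = 0.033), a call lost in 12 of 27 fits without 1 library. SR34.3 changed by 0.66 ± 0.19 without passing the test (adjusted p = 0.056). It was called without any one bent control, at 0.47 without replicate 3 (adjusted p = 0.021), and replicate 3 of bent seeds at 23 °C gave it the lowest share of all libraries, 6.19%. SR34.5 took 15.4 to 23.0% throughout. Over the mean of the stages, the isoform with the far acceptor and the longest coding sequence thus gained share at 27 °C in SR30 and lost it in SR34.

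**Figure D2:**
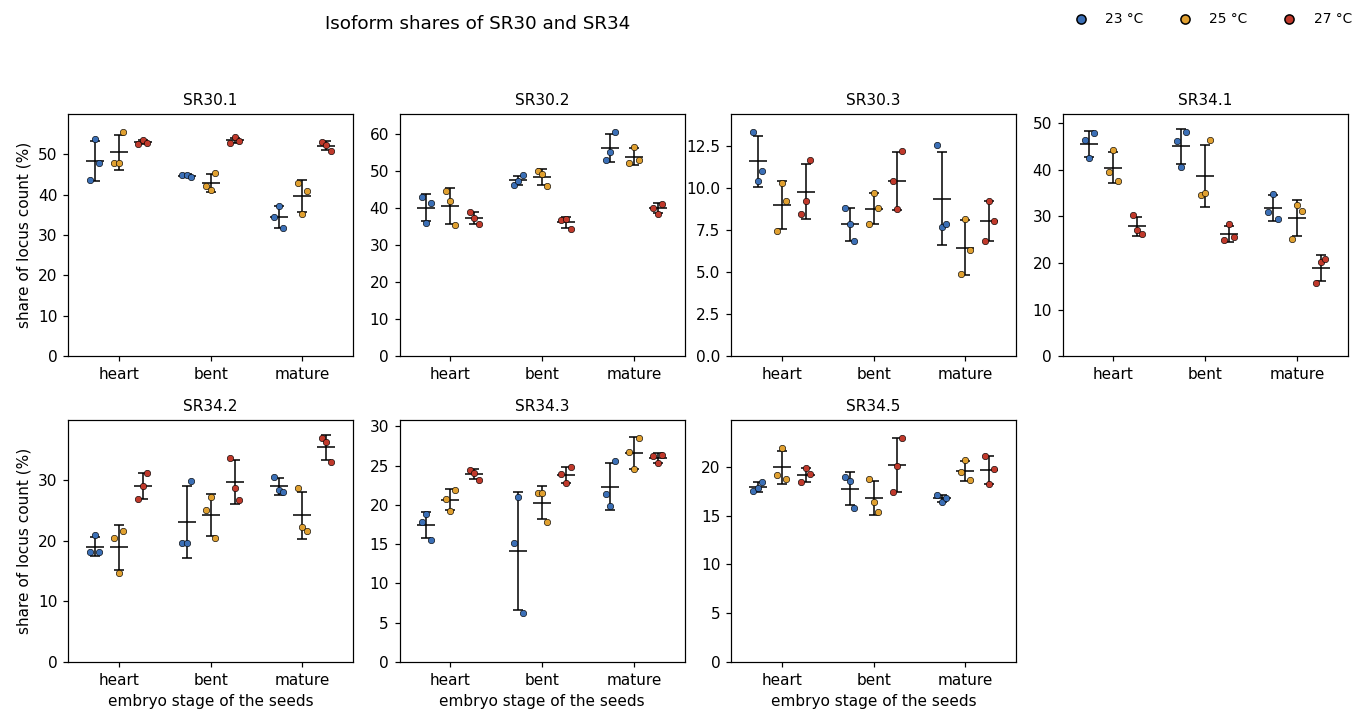
Share of each locus's estimated reads assigned to the SR30 and SR34 isoforms (y axis, percent) by stage and temperature (x axis), with one point per library, a dash at the group mean and error bars of 1 SD (n = 3). SR34.1 was lower at 27 °C than at 23 °C in each stage, and SR30.1 was higher without overlap in bent and mature seeds but overlapped in heart seeds (mature seeds, 34.5, 37.3 and 31.7% against 53.1, 52.3 and 50.8%).

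SR34a (AT3G49430), on chromosome 3, had isoforms called between stages, and none was called at 27 °C; the difference between the 2 kinds of contrast was not tested. Isoforms SR34a.1 and SR34a.6 encode the same 300 amino acids and differ before the start codon, with spliced lengths of 1458 and 1852 bases. At 23 °C SR34a.1 took 82.1%, 87.2% and 82.9% of the reads in heart seeds. Bent seeds gave 82.9%, 79.1% and 85.3% and mature seeds 67.1%, 68.2% and 64.0%, the lowest of the stages. SR34a.6 took 7.13%, 8.03% and 7.89% in bent and 15.5%, 16.7% and 20.4% in mature seeds, without overlap. From bent to mature seeds the log2 odds of SR34a.1 fell by 1.25 ± 0.25 (limma, adjusted p = 0.025) and those of SR34a.6 rose by 1.34 ± 0.30 (adjusted p = 0.046). They were the only 2 of 44 member isoforms called there, against 0.488% of all isoforms. Without replicate 3 of bent seeds the adjusted p was 0.075 and 0.083, the first call was also lost without any one mature replicate (adjusted p 0.057 to 0.091), the second call was lost in 21 of 27 fits without 1 library, and diffSpliceDGE called neither (adjusted p = 1.000 and 0.729). SR34a.7 took 3.90%, 4.26% and 3.11% in heart and 10.6%, 11.0% and 10.1% in mature seeds. With temperature the locus was lower in bent seeds, from 1415, 1433 and 1809 to 1255, 1323 and 1237 normalised counts (-0.28 ± 0.07, adjusted p = 8.3e-04). That call held without replicate 3 (-0.17, adjusted p = 0.016) but not under library-total scaling (-0.10, adjusted p = 0.313). Nor was the locus called in a fit of the bent libraries alone.

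RS40 (AT4G25500) was lower at 27 °C as a locus and lost share of its first isoform. Heart seeds held 1371, 1856 and 1577 normalised counts at 23 °C and 1306, 1253 and 1207 at 27 °C. Bent seeds held 1313, 1414 and 1488 at 23 °C against 1173, 1066 and 1102 at 27 °C, and mature seeds 1377, 1457 and 1521 at 23 °C against 1169, 1169 and 1235 at 27 °C. In each stage all warm libraries lay below the controls, with log2 fold changes of -0.35 ± 0.11, -0.33 ± 0.11 and -0.29 ± 0.12 (adjusted p = 0.012, 0.013 and 0.045). The mature call was lost in 16 of 27 fits without 1 library and with edgeR (adjusted p = 0.051). The heart call was lost without control replicate 2 (adjusted p = 0.170) or warm replicate 3 (adjusted p = 0.062), and the bent one without warm replicate 2 (adjusted p = 0.058). A fit of the heart libraries alone did not call RS40 either. Under library-total scaling none of the 3 stages was called (adjusted p = 0.107, 0.335 and 0.115). Without replicate 3 at 23 °C the bent difference was -0.30 (adjusted p = 0.065). The mean of -0.32 ± 0.07 (adjusted p = 5.6e-06) was called in all fits without 1 library, with edgeR and under library-total scaling. RS40.1 took 33.1%, 43.9% and 41.7% of the reads at 23 °C and 24.6%, 29.9% and 25.2% at 27 °C in heart seeds. It took 42.0%, 35.5% and 34.9% at 23 °C against 29.5%, 23.3% and 22.8% at 27 °C in bent seeds, and 32.0%, 39.0% and 34.5% at 23 °C against 22.6%, 23.2% and 26.7% at 27 °C in mature seeds. No groups overlapped, and the mean log2 odds fell by 0.82 ± 0.14 (limma, adjusted p = 0.0032), in all fits without 1 library. DiffSpliceDGE did not call RS40.1 (-0.57 as log2 fold change against the locus, adjusted p = 0.201).

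RS40.4 encodes the same 350 amino acids as RS40.1 and differs in its untranslated part. Its share was 4.86%, 9.65% and 12.3% in mature seeds at 23 °C and 21.9%, 15.7% and 17.4% at 27 °C, but in bent seeds at 23 °C it ranged from 8.35% to 25.4%, the highest being replicate 3. The mean log2 odds changed by 0.83 ± 0.26 without passing the test (adjusted p = 0.077). The summed share of RS40.1 and RS40.4 overlapped between 23 °C and 27 °C in each stage. In mature seeds this sum was 36.9%, 48.7% and 46.8% at 23 °C and 44.6%, 38.8% and 44.1% at 27 °C. A lower share of the 350 amino acid coding sequence is therefore not read from RS40.1 alone. RS40.3 and RS40.5, whose annotated coding sequences start elsewhere and encode 317 and 329 amino acids, took 27.3% and 20.6% on average, and RS40.6 took 5.02%. RS41 (AT5G52040), a close relative of RS40, held 2429, 2434 and 3166 normalised counts in bent seeds at 23 °C and 2281, 2302 and 2286 at 27 °C. Its bent difference of -0.22 ± 0.08 (adjusted p = 0.023) was -0.09 without replicate 3 at 23 °C (adjusted p = 0.304). A fit of the bent libraries alone did not call RS41 either. The mean of -0.12 ± 0.05 (adjusted p = 0.026) was lost in 4 of 27 fits without 1 library and under library-total scaling. RS41.1 and RS41.2, of 356 and 357 amino acids, took 57.0% and 17.7% of the reads. None of the 6 tested isoforms of RS41 was called at 27 °C. The summed share of RS41.1 and RS41.2 in mature seeds was 64.0%, 63.7% and 64.8% at 23 °C. At 27 °C it was 74.4%, 70.8% and 73.8%, without overlap. In heart and bent seeds this sum overlapped between 23 °C and 27 °C, and it was not tested. Where 50-base reads fall in stretches shared by related SR genes or by isoforms, Salmon divides them by a model, so small members of these sets are uncertain. RS41.4, RS41.5 and RS41.7 each ranged from 0 to over 12% between libraries.

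**Figure D3:**
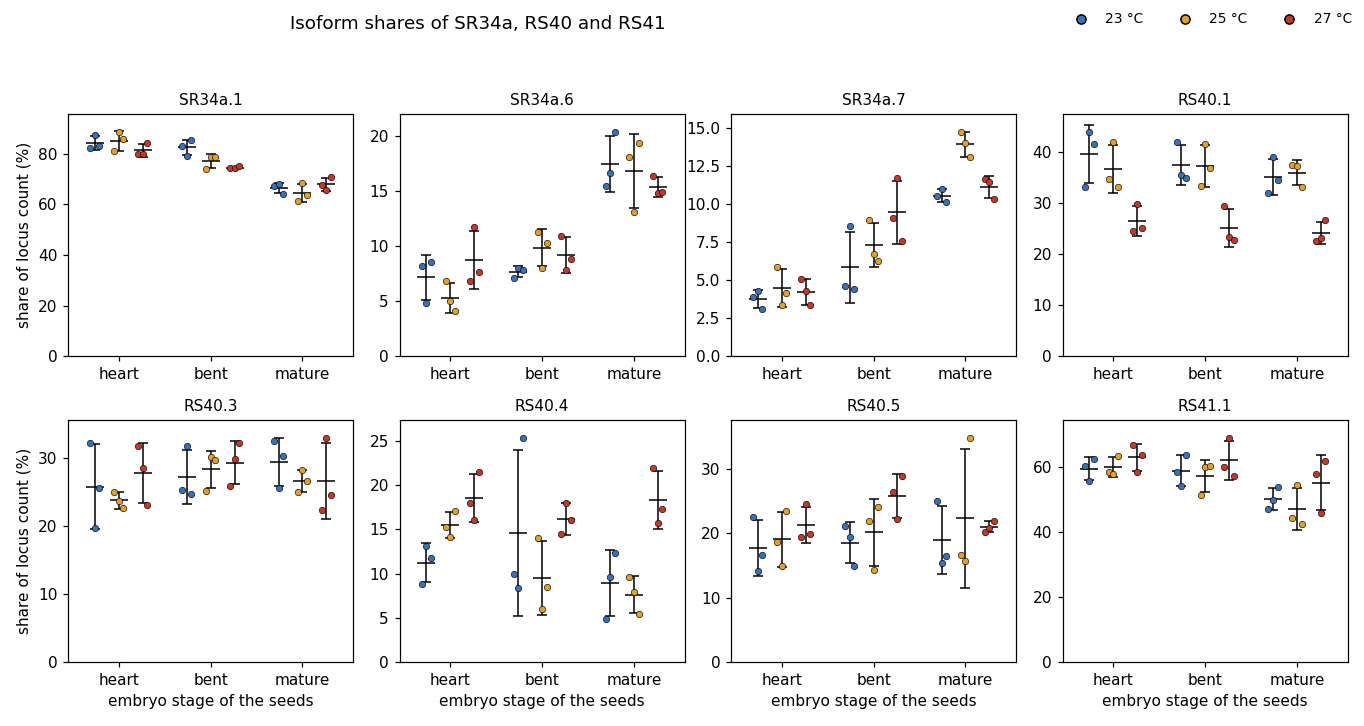
Share of each locus's estimated reads (y axis, percent) for isoforms of SR34a, RS40 and RS41 by stage and temperature (x axis), with one point per library, a dash at the group mean and error bars of 1 SD (n = 3). SR34a.1 lay lower in mature seeds than in bent seeds at 23 °C (67.1, 68.2 and 64.0% against 82.9, 79.1 and 85.3%), and RS40.1 lay lower at 27 °C than at 23 °C in each stage.

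RS2Z33 and RS31 were not called at 27 °C in any stage. RS2Z33 (AT2G37340), on chromosome 2, held 1498, 1519 and 1604 normalised counts in heart seeds at 23 °C and 1575, 1738 and 1603 at 27 °C. Its mean difference over the stages was -0.04 ± 0.07 (adjusted p = 0.688, 95% interval -0.17 to 0.10). RS2Z33.1, with the longest coding sequence of 290 amino acids, took 75.8 to 89.4% of its reads, and RS2Z33.3 and RS2Z33.6 took 7.73% and 6.48% on average. RS31 (AT3G61860), listed with 1 transcript of 264 amino acids, held 940.4, 964 and 955 in heart seeds at 23 °C and 957, 976 and 934 at 27 °C. Its mean difference was -0.05 ± 0.04 (adjusted p = 0.377, 95% interval -0.13 to 0.04).

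SCL30a (AT3G13570), listed with 1 transcript, was lower at 27 °C in all stages. Heart seeds held 849.9, 761 and 816 normalised counts at 23 °C and 675, 636 and 624 at 27 °C. Bent seeds held 942, 769 and 1049.7 at 23 °C against 594, 644 and 584 at 27 °C. Mature seeds held 795, 700.2 and 766 at 23 °C against 546, 573 and 579.5 at 27 °C, so that no warm library reached any control of its stage. The log2 fold changes were -0.33 ± 0.10, -0.60 ± 0.10 and -0.41 ± 0.10 (adjusted p = 0.0067, 6.2e-08 and 6.0e-04), and all held in each fit without 1 library. Under library-total scaling the heart difference was -0.25 (adjusted p = 0.110), whereas bent and mature seeds kept the call. The mean of -0.45 ± 0.06 (adjusted p = 4.9e-13) was the largest decrease among the 10 members.

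SCL33 (AT1G55310), its relative, was not called in any stage. Normalised counts in heart seeds were 1569.9, 1379 and 1460.2 at 23 °C and 1687, 1749 and 1741 at 27 °C, without overlap, but the difference of 0.23 ± 0.14 did not pass the test (adjusted p = 0.220). Under library-total scaling it did (0.31, adjusted p = 0.044). Its mean difference was 0.10 ± 0.08 (adjusted p = 0.314). It was 0.17 and was called without replicate 3 of bent seeds at 23 °C (adjusted p = 0.019), and also under library-total scaling (0.20, adjusted p = 0.010). SCL33.4, which keeps an intron and spans 2399 bases, took 40.0 to 58.7% of the reads and 34.0% per length. SCL33.5, SCL33.6 and SCL33.7 took 16.6%, 15.1% and 10.5% of the reads, and none of the 7 isoforms was called at 27 °C.

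SR45 (AT1G16610) was lower at 27 °C in bent and mature seeds. Bent seeds held 1439, 1474 and 1758 normalised counts at 23 °C and 1243, 1239.6 and 1294 at 27 °C. Mature seeds held 1347, 1219 and 1278 at 23 °C against 1058, 1117 and 1050.3 at 27 °C. Heart seeds held 1359, 1366 and 1421 at 23 °C against 1238, 1223 and 1231 at 27 °C, also without overlap, yet missed the threshold (-0.17 ± 0.07, adjusted p = 0.051), which it passed without replicate 3 of bent seeds at 23 °C (adjusted p = 0.0070). The bent and mature differences were -0.30 ± 0.07 and -0.25 ± 0.07 (adjusted p = 6.5e-05 and 0.0022). Under library-total scaling the bent call was lost (-0.12, adjusted p = 0.265) and the mature one kept. SR45.1 and SR45.2, of 414 and 407 amino acids, took 71.3% and 18.4% of the reads, SR45.6 took 7.71%, and none was called at 27 °C. SR45.4 was at 0 in all libraries.

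In all, 3 of the 10 members were called at 27 °C in heart seeds (SR30 higher, RS40 and SCL30a lower), where 24.1% of the 21445 tested loci were called. Bent seeds gave 5, all lower (SR34a, RS40, RS41, SCL30a and SR45), against 36.9% of loci called and 21.0% called lower, and mature seeds 4 (SR30 higher, RS40, SCL30a and SR45 lower) against 30.2%. Without replicate 3 of bent seeds at 23 °C, SR30 was called higher in bent seeds (0.57) and RS40 and RS41 lost their calls. SR34a, SCL30a and SR45 kept theirs. That fit called 2832 of all loci higher and 3465 lower. Over the mean of the stages 6 were called (SR30 higher, SR34a, RS40, RS41, SCL30a and SR45 lower) against 49.3%. Nothing particular to the members is read from these counts. On the TPM scale the bent groups of SR34a, RS40, RS41 and SR45 overlapped, and those of SCL30a did not. The split depended on scaling: when counts were scaled by library totals, heart seeds gave 2 higher (SR30 and SCL33) and 0 lower, bent seeds 1 higher (SR30) and 1 lower (SCL30a), and mature seeds 1 higher and 2 lower. Of all 21445 loci, library totals called 3061 higher and 1346 lower in heart, 5044 and 1768 in bent, and 2774 and 2471 in mature seeds. That scaling shifted every locus upward by a log2 difference of 0.08 (heart), 0.18 (bent) and 0.02 (mature). No member's response at 27 °C differed between stages in the test of the difference itself (0 of 10 in each of 3 interaction contrasts, DESeq2, 0 also at an unadjusted p under 0.05 and 0 with edgeR; background 14.7, 5.5 and 14.9%). The contrasts that use bent seeds include replicate 3 at 23 °C, and values without it are not given here. The lowest adjusted p was 0.198, for SCL30a in bent against heart seeds. Among isoforms 0 of 44 were called in each (limma; 0, 2 and 2 at an unadjusted p under 0.05; background 0.0355, 0.0266 and 0.0887%).

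**Figure D4:**
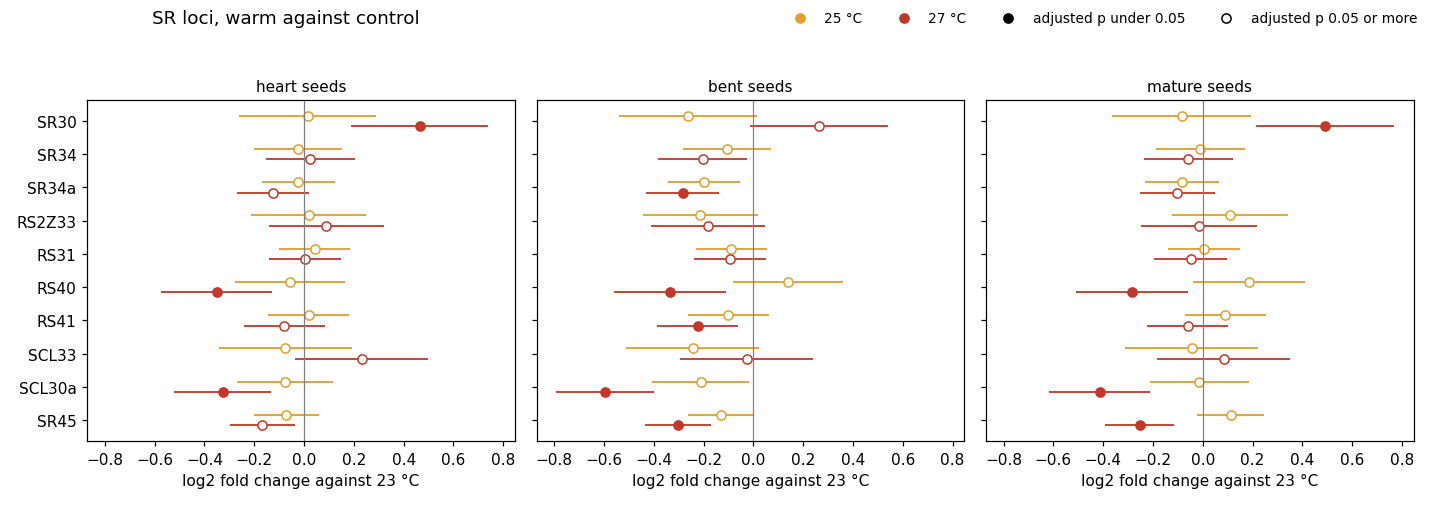
Log2 fold change of each member against 23 °C (x axis) at 25 °C and 27 °C in heart, bent and mature seeds, with 95% intervals from DESeq2 and filled points for an adjusted p under 0.05. SR30 lay to the right of 0 and SCL30a to the left at 27 °C in each stage; SCL30a in bent seeds at 25 °C had no adjusted p and is drawn open.

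At 25 °C none of the 10 members was called in heart, bent or mature seeds or in their mean (DESeq2; 0, 3, 0 and 1 at an unadjusted p under 0.05; edgeR called 0, with 0, 2, 0 and 1). Of all loci 0.821, 3.06, 1.6 and 7.47% were called in these contrasts. In bent seeds SCL30a had no adjusted p from DESeq2 and could not be called. The nearest was SR34a in bent seeds, with 1292, 1343 and 1417 normalised counts against 1415, 1433 and 1809 at 23 °C (-0.20 ± 0.07, adjusted p = 0.056). SR30 held 1931, 1937 and 2046 in mature seeds at 25 °C, below all controls without being called. Its share of SR30.1 there was 43.0%, 35.3% and 40.8%, between those at 23 °C and 27 °C for 2 of 3 libraries. SR34.1 took 39.6%, 44.2% and 37.6% in heart, 34.6%, 34.96% and 46.3% in bent and 25.2%, 32.4% and 31.2% in mature seeds at 25 °C, overlapping the controls in each stage. Among isoforms 0 of 44 were called at 25 °C (limma; 0, 3, 4 and 6 at an unadjusted p under 0.05; background 0.0266, 0.00443, 0.031 and 0.0621%). DiffSpliceDGE called RS2Z33.4 in the mean, an isoform at 0 in 13 of 27 libraries.

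Between stages at 23 °C, 6 of 10 members were higher in bent than in heart seeds, against 58.8% of all loci called and 29.3% called higher. RS2Z33 had the largest difference, from 1498, 1519 and 1604 to 1719, 1781 and 2668 normalised counts (0.41 ± 0.12, adjusted p = 0.0011). Without replicate 3 of bent seeds it was 0.19 and still called, as was SR34a (0.15). SR34, RS31, RS41 and SR45 then lost their calls, and SR30 was lower in bent seeds (-0.31, adjusted p = 2.7e-04). Leaving out replicate 1 of heart seeds at 23 °C ended the calls of RS31, RS41 and SR45 (adjusted p = 0.061, 0.107 and 0.070), and RS40 was then called lower in bent seeds (-0.29, adjusted p = 0.026). From bent to mature seeds 3 of 10 fell, against 50.3% of loci called and 27.0% called lower: SR34a (-0.29 ± 0.08), SCL30a (-0.29 ± 0.10) and SR45 (-0.28 ± 0.07), with adjusted p = 4.0e-04, 0.011 and 1.9e-04. The SCL30a call was lost without replicate 3 (adjusted p = 0.119). With only the 2 groups compared in the fit, 0 members were called in either step (DESeq2; 1 and 2 at an unadjusted p under 0.05). With library totals 3 were called in the first step (RS2Z33 higher, RS40 and SR30 lower) and 8 fell in the second. Of the 21445 loci, fits of only the 2 groups called 4566 higher and 4775 lower in the first step, and 3488 and 3883 in the second. With library totals these were 4026 and 8046, then 2451 and 8599. No member isoform was called from heart to bent seeds, against 1.32% of all isoforms.

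**Figure D5:**
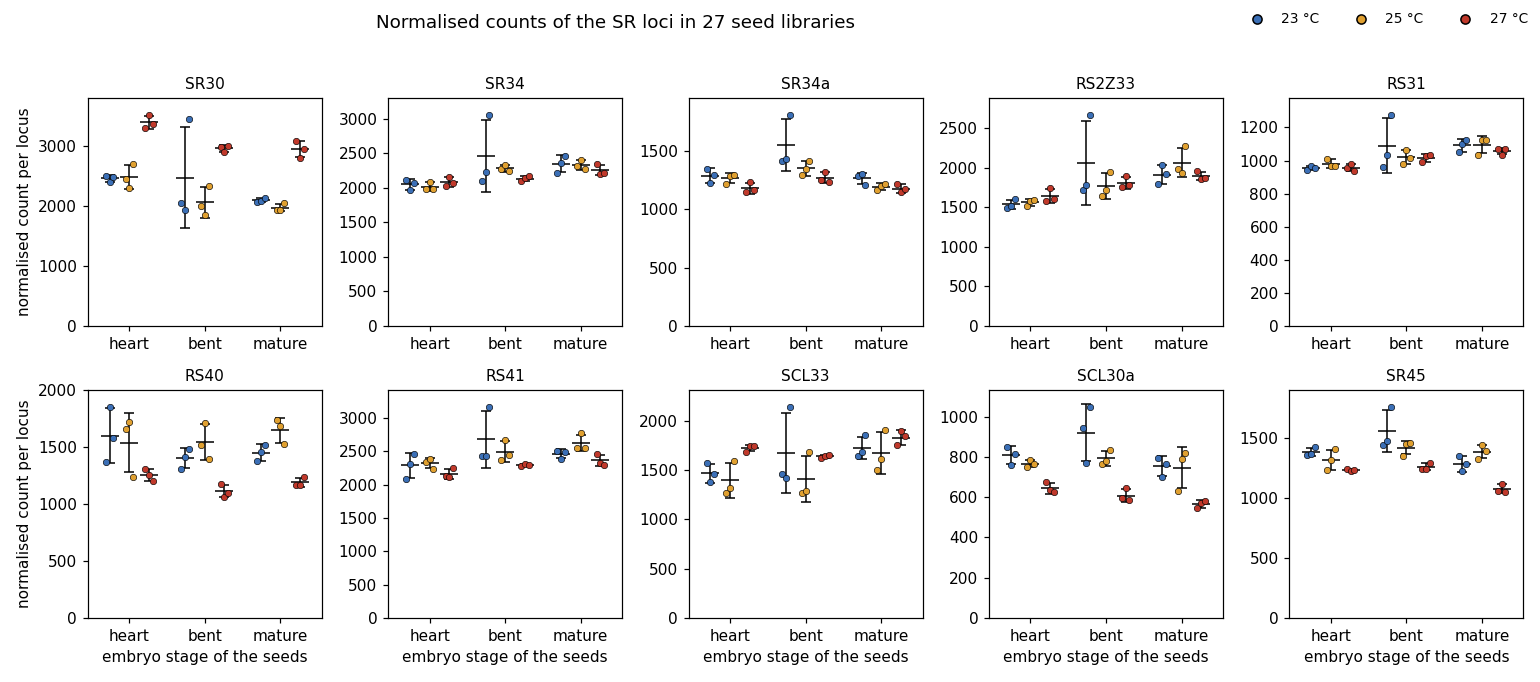
Normalised counts (y axis, one panel per member) by stage and temperature (x axis), with one point per library, a dash at the group mean and error bars of 1 SD (n = 3). SR30 was called higher at 27 °C in heart and mature seeds, SCL30a and RS40 lower in each stage, and the third library of bent seeds at 23 °C stands above its replicates in most panels (SR30, 3439.8 against 2043 and 1923).

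Other genes of the splicing pathway were taken from named lists and are described by counts and medians. Of the 21445 tested loci, 2695 were called higher at 27 °C and 2467 lower in heart, 3412 and 4511 in bent, and 3163 and 3305 in mature seeds. The bent calls of the lists include replicate 3 at 23 °C, and values without it are not given. At 27 °C, 10 further SR and SR-like genes gave 2 higher and 2 lower calls for heart seeds, 2 and 6 for bent seeds, and 2 and 3 for mature seeds. SR45a, an SR-like gene, had log2 fold changes of 0.97 ± 0.24, 0.59 ± 0.24 and 0.92 ± 0.24 (heart, bent, mature), and RS31a of 0.28 ± 0.10, 0.46 ± 0.10 and 0.27 ± 0.11, all called. SCL30 (-0.25 ± 0.09, -0.55 ± 0.09 and -0.43 ± 0.09) and RSZ22a (-0.34 ± 0.06, -0.35 ± 0.06 and -0.22 ± 0.07) were lower in all stages. The list's median log2 fold change was -0.06, -0.18 and -0.14, beside -0.04, -0.21 and -0.06 for the 10 members and -0.01, -0.02 and 0.00 for all loci. SR protein kinases phosphorylate the arginine/serine-rich tails. Of 8 loci listed under that name, none was called in heart seeds, 1 was higher in bent seeds (AT4G35500) and 1 in mature seeds (AFC1, 0.19 ± 0.07). Among 8 splice site recognition factors 0 were higher and 1 lower in heart, 0 and 5 in bent, and 1 and 2 in mature seeds. CBP80, a subunit of the nuclear cap-binding complex, was lower in all of them (-0.20 ± 0.05, -0.20 ± 0.05 and -0.16 ± 0.05). Of 5 hnRNP-type regulators, 2 were lower in bent seeds, GRP7 (-0.70 ± 0.15) and PTB3, and 1 was higher in mature seeds, GRP8 (0.31 ± 0.13).

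The loci whose pattern over the 9 group means was most like that of a member were found among 15776 loci by Pearson's r of log2 normalised counts. This is a description, since the groups share libraries and scaling. For SR30 they were Fes1A (r = 0.984) and MBF1C (r = 0.980), both known from the heat response, and AT2G20560 (r = 0.974). The closest to SR34 was BPC2 (r = 0.988), to SR34a AT3G49910 (r = 0.995), and to RS2Z33 U2AF65A (r = 0.977), which encodes a splice site recognition factor. RS31 was closest to LACS4 (r = 0.981), RS40 to AT5G66060 (r = 0.966) and RS41 to TOC132 (r = 0.977). SCL33 was closest to ATCS (r = 0.947), SCL30a to AT3G07310 (r = 0.977) and SR45 to HMG1 (r = 0.991).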

How the data were processed

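RNA was sequenced from whole seeds in single-end reads of 50 bases, and the authors estimated transcript abundance with Salmon against Araport11. The deposited table holds these estimated counts (expected counts), not normalised and not pooled, beside transcript length and effective length. Of its values, 61.5% were not whole. All columns belonged to the 27 libraries, leaving 0 columns unused. Whether counting used the strand is not given in the sources used here.

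Estimated counts were summed per locus and rounded. Loci that reached 10 counts in 3 or more libraries (21445) were tested with DESeq2 1.42.0 (R 4.3.3), all 9 groups fitted together and sized by median-of-ratios factors. Normalised counts are counts divided by these factors. Isoform shares were tested with limma 3.58.1 (trend, robust) on log2((isoform + 1)/(rest of locus + 1)), for loci with a mean of at least 50 counts and isoforms reaching 10 in 3 or more libraries (22554). Benjamini-Hochberg adjusted p-values run over all features tested in limma and edgeR. In DESeq2 they run over the loci kept by its independent filter on mean count, which is set for each contrast. Percentages of loci called are of all 21445 tested. Calls need an adjusted p under 0.05, and tests are two-sided. An adjusted p that DESeq2 withheld was left out. Alternatives were edgeR 4.0.16 (quasi-likelihood, TMM), library-total size factors, no filter, a replicate block and fits of fewer groups. Further ones were each library left out, a pseudocount of 5, a locus mean of at least 200, and diffSpliceDGE. For temperature contrasts the fits of fewer groups held all 3 temperatures of the stage, and for steps between stages only the 2 groups compared. Scripts were tested on simulated data. One result of the pathway lists is not reported here.

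All 10 members were named, with each isoform of a mean share of at least 5% or called at 27 °C. The members and lists were chosen with earlier results of these data known. The methods of the study call its RNA replicates biological. Whether they came from separate plants is not given in the sources used here, and p-values measure the spread between these samples. All replicate pairs differed by more than sampling noise. Sequences came from RefSeq, assembly TAIR10.1, in which 99.6% of the 48268 transcripts were matched by name.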

Additional observations from a re-analysis of the deposited data

Results flagged for a closer look

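For 2 genes of the pathway lists the 27 °C response differed between stages in the interaction test of DESeq2. SCL28 had normalised counts of 85.1, 103 and 85.9 in heart seeds at 23 °C and 71.5, 71.4 and 64.5 at 27 °C. In bent seeds it had 59.5, 53.9 and 28.2 at 23 °C against 56.5, 63.7 and 72.4 at 27 °C. Its log2 response was higher by 0.83 in bent than in heart seeds, and replicate 3 of bent seeds at 23 °C held the lowest value. The difference without that library is not given. UPF2, a nonsense-mediated decay factor, had 1436, 1449 and 1429 in heart seeds at 23 °C and 1418, 1347 and 1415 at 27 °C, and 1518, 1461 and 1441 at 23 °C against 1736, 1655 and 1622 at 27 °C in mature seeds. Its log2 response was higher by 0.23 in mature than in heart seeds. Neither is a member, and their part in the member results was not tested.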

How the results depend on the processing

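Counts of members called moved with scaling, with the groups in the fit and with single libraries. With library totals the counts were 2 in bent seeds at 27 °C, 3 from heart to bent and 8 from bent to mature seeds. With fewer groups in the fit they were 3, 0 and 0. For bent seeds at 27 °C this fit held the bent libraries of all temperatures, and for the steps only the 2 groups compared. In bent seeds at 27 °C the fit of the bent libraries alone called 2780 of all loci higher and 3162 lower. Directions reversed with library totals from heart to bent seeds for SR30 (-0.22), SR45 (-0.020) and RS31 (-0.0055), and from bent to mature seeds for RS31 (-0.20). Leaving out 1 library gave 2 to 4 members at 27 °C in heart, 3 to 8 in bent, 3 to 4 in mature seeds and 5 to 7 in the mean. At 25 °C it gave 0 to 3 in bent seeds and 0 to 1 in the mean. The 3 came when control replicate 2 was left out, where 133 of all loci were called higher and 1725 lower. Leaving out 1 library also changed the calls between stages. It gave 3 to 7 from heart to bent and 2 to 4 from bent to mature seeds. The highest bent count at 27 °C, 8, came from leaving out control replicate 1, and the lowest, 3, from leaving out warm replicate 2. Of all loci the first fit called 3346 higher and 4626 lower, and the second 3002 and 3898. Nothing particular to the members is read from these ranges. Reversals in the fits without 1 library fell in the ranges -0.31 to 0.16 for SR30 from heart to bent seeds. From bent to mature seeds they were -0.39 to 0.075 for SR30, -0.17 to 0.12 for SR34, -0.21 to 0.13 for RS2Z33, -0.073 to 0.13 for RS31 and -0.18 to 0.018 for RS41. Member isoforms called ranged over 0 to 1 in heart, 0 to 2 in bent, 0 to 3 in mature seeds, 4 to 7 in the mean at 27 °C, and 0 to 3 from bent to mature seeds. With diffSpliceDGE 0 were called in bent and mature seeds at 27 °C, 1 in the mean at 27 °C, 1 in the mean at 25 °C and 0 from bent to mature seeds. A pseudocount of 5 gave 1 in heart seeds at 27 °C. The causes were not tested. Isoform shares rest on 50-base single-end reads divided between isoforms by a model.

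With the replicate number as a block, 1 member isoform was called in mature seeds at 27 °C (SR30.2 lost, adjusted p = 0.067) and 1 from bent to mature seeds (SR34a.6 lost, adjusted p = 0.056). SR45 was called in heart seeds (-0.17) and SR30 from heart to bent seeds was -0.014. Same-numbered libraries did not deviate together: over 108 pairs r ran from -0.546 to 0.547 (median 0.020), and 11 of 27 libraries correlated best with their own number.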
